A study of Mus musculus with 6 samples.

Results

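The genes described here are 41 genes of the unfolded protein response and the heat shock response, measured in mouse macrophages grown from bone marrow. They were chosen by gene symbol from the 55421 genes of the deposited count table, and each of the 41 symbols matched a single gene identifier. Of these, 28 act in or at the endoplasmic reticulum (ER) and 13 belong to the cytosolic and mitochondrial heat shock system. Wild-type macrophages in 3 wells spent 24 h in equal volumes of RPMI-1640 and of LL-2 conditional medium, meaning medium taken from cultures of the Lewis lung carcinoma line LL-2. In the other 3 wells, wild-type macrophages stayed in RPMI-1640 medium alone. The labels give 10% serum, 1% penicillin/streptomycin and 20 ng/mL macrophage colony-stimulating factor (M-CSF) for the fresh medium of both groups. The mixture may have held less fresh serum and M-CSF than the unmixed medium, and a control with medium from another cell type was not analysed here. The labels give neither the number of animals nor their strain or age. The p-values therefore rest on differences among the wells of a group, and these may be technical.

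The ER folds secreted and membrane proteins with the help of chaperones such as BiP. When unfolded proteins accumulate, the sensors IRE1, PERK and ATF6 start the unfolded protein response, in which XBP1, ATF4 and the cleaved ATF6 fragment raise transcription of chaperones and of the machinery that retrotranslocates misfolded proteins for degradation. In the cytosol and nucleus, heat shock factor 1 raises transcription of HSP70, HSP90 and their helpers when proteins misfold there. Macrophages secrete many proteins and carry both systems at a basal level.

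Libraries held 28447825 to 30040682 counts with conditioned medium and 24179548 to 25916709 counts without it, so each treated library was the deeper. Levels below are in CPM, counts scaled to the library total, after TMM scaling, which corrects for differences in library composition. Macrophage markers dominated both groups, with 8 of 8 tested and a summed level of 57300 to 61900 CPM with conditioned medium and 51000 to 60300 CPM without it. Lyz2 made up most of the macrophage sum, with means of 49292.7 CPM with conditioned medium and 45409.8 CPM without it. By the test described below, Csf1r, Mertk and Itgam were higher with conditioned medium, and Adgre1, Cd68 and Fcgr1 were lower. The 5 neutrophil markers summed to 353 to 424 CPM with conditioned medium and 266 to 381 CPM without it. Of these, Retnlg was called higher and Camp lower. The 4 fibroblast markers summed to 26.6 to 76.0 CPM in the treated wells and 13.0 to 54.7 CPM in the untreated wells. The 6 B and plasma cell markers summed to 39.4 to 42.2 CPM in the treated wells and 88.2 to 92.7 CPM in the untreated wells. Most of that sum came from Sdc1, which averaged 33.0 CPM with conditioned medium and 80.7 CPM without it. Mast cell and basophil markers summed to 1.45 to 3.68 CPM with conditioned medium and 6.50 to 7.84 CPM without it, while dendritic cell markers summed to 3.10 to 5.81 CPM with conditioned medium and 6.42 to 10.6 CPM without it. Markers of T cells, erythroid cells and epithelial carcinoma cells each summed to at most 1.41 CPM in any well, and Hbb-bt had 0 counts throughout. The part of other cells in the changes below was not tested, and in bulk RNA fewer cells of a type cannot be told apart from less RNA per cell.

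Chaperone and stress genes moved little in conditioned medium, and more of them fell than rose. Of the 41 members, all of which passed the low-count filter, 4 rose and 12 fell (edgeR quasi-likelihood test, Benjamini-Hochberg adjusted p under 0.05 over 13853 genes). That is 39.0% of members called, where 27.9% of all tested genes were called. By direction, 12.6% of all tested genes rose and 15.2% fell, 1749 and 2112 genes. With no scaling beyond the total count the split was 2656 higher and 1710 lower over all genes, and 5 higher and 10 lower among the members. The 4 rises of members became 1 without untreated replicate 2, and 2 without untreated replicate 1, conditioned-medium replicate 1 or conditioned-medium replicate 3. The members that fell numbered 9 to 12 when any single well was left out. None of the 16 called members changed by more than 1.5-fold, and among the uncalled members Hspa1b alone had a larger fitted difference. Over all tested genes, 15.1% had a fitted change beyond that size. The median log2 fold change, conditioned medium minus untreated, was -0.03 over the members and 0.01 over all tested genes, and the median size of change was 0.10 in the members and 0.17 in all genes. The wells of the 2 groups did not overlap for 5 members that were higher and 17 that were lower with conditioned medium, where 21.2% and 21.6% of all tested genes showed these patterns (42.8% in either direction). Conditioned-medium wells held 8601.5 ± 148 CPM of member transcripts in sum, against 9419.5 ± 267 CPM in untreated wells (SD, n = 3 each). The difference was -8.68%, or -4.92% with no scaling beyond the total count. The largest parts of this difference came from Calr, Hsp90ab1 and Hspa5. Their means were 628.4, 727.5 and 616.0 CPM with conditioned medium, in that order, and 882.5, 901.9 and 746.5 CPM without it.

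**Figure D1:**
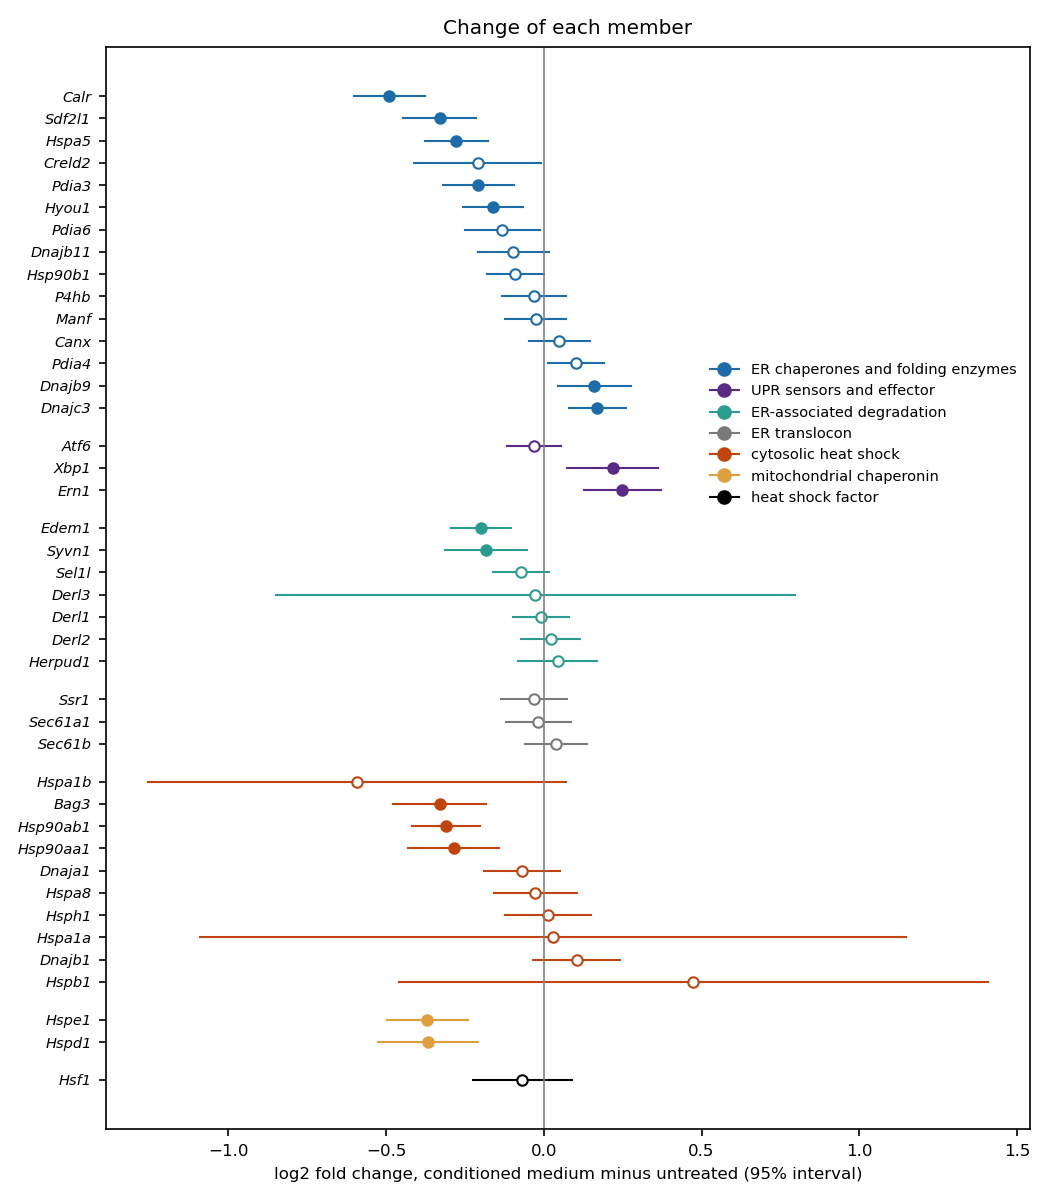
Log2 fold change of each of the 41 members (conditioned medium minus untreated, x axis) by role, with the 95% interval from the edgeR fit; filled points passed the adjusted p threshold of 0.05. Most filled points lie left of 0, led by Calr at -0.49, while Ern1, Xbp1, Dnajc3 and Dnajb9 lie to the right.

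Among the ER genes, the chaperones and folding enzymes are the largest role. Of these 15 genes, 5 fell (Calr, Sdf2l1, Hspa5, Pdia3 and Hyou1), 2 rose (Dnajc3 and Dnajb9) and 8 did not pass the test. That is 46.7% called, against 27.9% of all tested genes. The summed level of the 15 genes was 3863.0 ± 45.4 CPM with conditioned medium and 4373.1 ± 100 CPM without it, and the wells of the groups did not overlap.

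Calr encodes calreticulin, a calcium-binding lectin chaperone for glycoproteins (ENSMUSG00000003814, GRCm38 chromosome 8, 84841850 to 84846934). Calr had 649.1, 643.9 and 592.1 CPM in the conditioned-medium wells, against 882.2, 908.4 and 856.8 CPM in the untreated wells. Every treated well lay below every untreated well, and the fall was the largest among the called members (log2 fold change -0.49, SE 0.05, adjusted p = 0.000114). Canx encodes calnexin, the membrane-bound partner of calreticulin in the same folding cycle. It had 459.7, 456.8 and 463.0 CPM with conditioned medium and 432.7, 438.9 and 462.0 CPM without it. Its groups overlapped, and the log2 fold change of 0.05 had a 95% interval of -0.05 to 0.14 (adjusted p = 0.441), which lies apart from the interval of Calr, -0.60 to -0.38. Pdia3, the disulphide isomerase that works with both lectins, had 490.7, 489.8 and 482.9 CPM in treated wells and 529.0, 567.2 and 593.8 CPM in untreated wells. Its fall (log2 fold change -0.21, SE 0.05, adjusted p = 0.0129) missed the threshold without untreated replicate 2, at adjusted p = 0.0553.

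Hspa5 encodes BiP, the HSP70 chaperone of the ER lumen that also holds the stress sensors inactive (ENSMUSG00000026864, chromosome 2, 34771970 to 34777547). Conditioned-medium wells had 627.6, 613.7 and 606.6 CPM, against 729.7, 733.4 and 776.4 CPM in untreated wells. The groups were separate, and BiP transcripts fell 1.21-fold (log2 fold change -0.28, SE 0.04, adjusted p = 0.00140). Among genes that serve BiP, Sdf2l1, a component of its complex with ERdj3, had 60.2, 58.7 and 63.0 CPM with conditioned medium and 71.8, 77.7 and 79.1 CPM without it. It fell 1.26-fold (adjusted p = 0.00134), with separate groups. Hyou1, a large HSP70-related nucleotide exchange factor for BiP, averaged 109.1 ± 1.60 CPM with conditioned medium and 122.0 ± 3.68 CPM without it (log2 fold change -0.16, adjusted p = 0.0182). That call was lost without conditioned-medium replicate 1 (adjusted p = 0.0574) or untreated replicate 2 (0.0581), with no scaling beyond the total count (0.0720) and with no low-count filter (0.0722).

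Of the 3 J-domain cochaperones of BiP among the members, 2 rose and 1 was not called. Dnajc3, which encodes p58IPK, an inhibitor of PERK that also binds nascent proteins, had 128.8, 133.7 and 134.1 CPM in conditioned-medium wells and 116.1, 117.6 and 118.9 CPM in untreated wells. It rose 1.12-fold (adjusted p = 0.0118, and 0.0501 without untreated replicate 2). Dnajb9, which encodes ERdj4, a cochaperone that recruits BiP to IRE1, had 44.3, 43.8 and 43.4 CPM with conditioned medium and 38.0, 38.1 and 41.6 CPM without it. Its rise of 1.12-fold was close to the threshold (adjusted p = 0.0456) and was lost without any single well except untreated replicate 3, with adjusted p values of 0.0642 to 0.162, with RLE scaling (0.0510), with DESeq2 (0.141), with no low-count filter (0.0547) and at equal depth (0.0508). Dnajb11, encoding ERdj3, averaged 102.3 ± 0.754 CPM in treated wells and 109.4 ± 6.59 CPM in untreated wells (log2 fold change -0.10, adjusted p = 0.192).

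The other 6 genes of this role did not pass the test. Hsp90b1, encoding the ER HSP90 paralog GRP94, had a log2 fold change of -0.09 (95% interval -0.18 to 0.00, adjusted p = 0.131), with 345.7, 349.8 and 339.5 CPM in treated wells and 360.6, 374.9 and 366.1 CPM in untreated wells. P4hb, a disulphide isomerase gene, was at 183.5 CPM per kilobase with conditioned medium and 187.5 CPM per kilobase without it, and its log2 fold change of -0.03 had a 95% interval of -0.13 to 0.07. Pdia4, another disulphide isomerase, had a log2 fold change of 0.10 (adjusted p = 0.0883, and 0.0159 with no scaling beyond the total count). For Pdia6, a disulphide isomerase that acts on IRE1, the log2 fold change was -0.13 (adjusted p = 0.0982, and 0.0148 with the replicate number as a block in the fit). Creld2, a disulphide isomerase-like gene induced by ER stress, had 20.8, 22.5 and 17.5 CPM with conditioned medium and 23.6, 23.8 and 22.9 CPM without it (adjusted p = 0.116, and 0.0268 with the block), and it also fell without conditioned-medium replicate 2 (0.0421). With the block, 36.3% of all tested genes were called. Manf, a secreted ER stress-induced factor, averaged 55.0 ± 1.14 CPM with conditioned medium and 56.0 ± 1.16 CPM without it (adjusted p = 0.699), and its exons overlap those of Dcaf1 on the opposite strand.

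**Figure D2:**
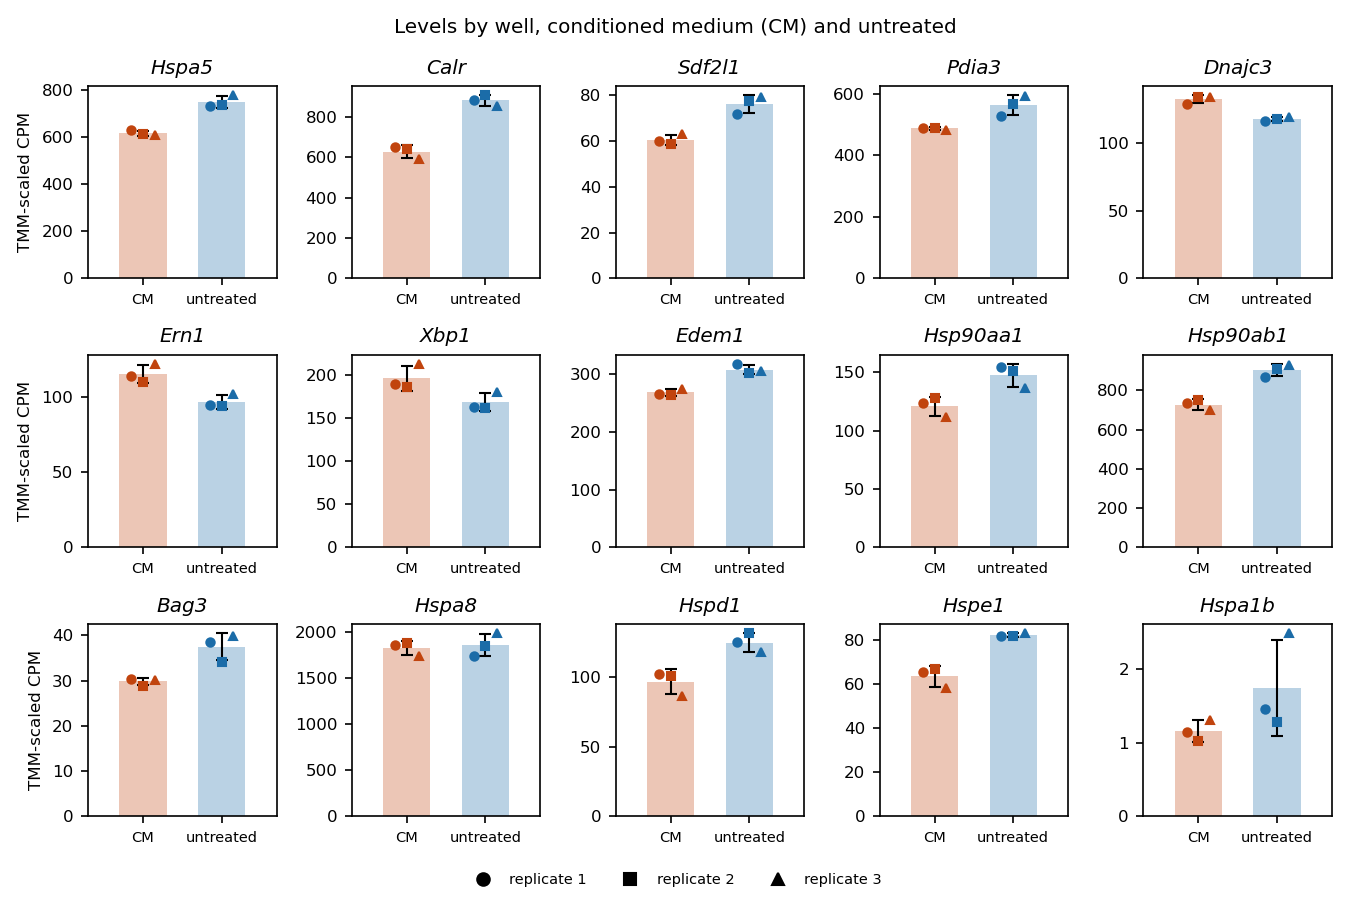
TMM-scaled CPM (y axis, from 0) of 15 members in each well of conditioned medium (CM, left) and untreated medium (right); bars are means, error bars are SD over 3 wells, and symbols mark the replicate number. The groups are separate for Hspa5, Calr and Hsp90ab1 and overlap for Hspa8 and Hspa1b.

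Of the 3 sensor and effector genes, 2 rose and 0 fell in edgeR, and none fell at an unadjusted p under 0.05 or with DESeq2. Over all tested genes, 12.6% rose and 15.2% fell in edgeR. Ern1, which encodes IRE1, the kinase and endoribonuclease that splices Xbp1 messenger RNA (ENSMUSG00000020715, chromosome 11, 106394650 to 106487852), had 114.1, 109.8 and 121.9 CPM in conditioned-medium wells. Untreated wells had 94.8, 93.8 and 102.3 CPM. All treated wells were higher, and Ern1 rose 1.19-fold (log2 fold change 0.25, SE 0.05, adjusted p = 0.00780). Xbp1, the transcription factor gene that IRE1 acts on (chromosome 11, 5520659 to 5525893), had 189.5, 185.4 and 212.3 CPM with conditioned medium and 162.6, 162.0 and 180.0 CPM without it. The rise was 1.16-fold (SE 0.06 on the log2 scale, adjusted p = 0.0316), and it was seen in each pair of wells with the same replicate number, at 0.22, 0.19 and 0.24 on the log2 scale. The call was lost without conditioned-medium replicate 1 (adjusted p = 0.0549) or replicate 3 (0.0677) and without untreated replicate 1 (0.109) or replicate 2 (0.124). The gene counts do not separate spliced from unspliced Xbp1. Atf6, the other sensor among the members, had 155.5, 154.8 and 154.0 CPM with conditioned medium and 160.0, 157.2 and 157.5 CPM without it (log2 fold change -0.03, 95% interval -0.12 to 0.05, adjusted p = 0.581).

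Of 7 genes of ER-associated degradation, 2 fell and 0 rose in edgeR, which is 28.6% called against 27.9% of all tested genes. At an unadjusted p under 0.05, 2 were lower and 0 higher, and DESeq2 called 1 lower and 0 higher. Edem1, a mannosidase-like lectin that removes glycoproteins from the folding cycle, had 266.7, 265.0 and 275.3 CPM in conditioned-medium wells and 317.9, 302.2 and 305.8 CPM in untreated wells. The groups were separate, and Edem1 fell (log2 fold change -0.20, SE 0.04, adjusted p = 0.00668). Syvn1, which encodes the ubiquitin ligase HRD1, had 48.5, 47.2 and 53.9 CPM with conditioned medium and 55.9, 55.7 and 58.3 CPM without it (log2 fold change -0.18, adjusted p = 0.0407). Its call was lost without any single well except conditioned-medium replicate 3, with adjusted p values of 0.0801 to 0.129, with DESeq2 (0.0531), with no scaling beyond the total count (0.126) and with no low-count filter (0.0646). Syvn1 exons share 91 bases with Mrpl49 on the opposite strand. Sel1l, the adaptor of HRD1, averaged 185.4 ± 0.184 CPM in treated wells and 194.9 ± 4.69 CPM in untreated wells (adjusted p = 0.217). Herpud1, a membrane scaffold of the HRD1 complex, had a log2 fold change of 0.04 (95% interval -0.08 to 0.17). For the derlin genes, whose products take part in retrotranslocation, the log2 fold change was -0.01 for Derl1 and 0.02 for Derl2, whose exons share 231 bases with Mis12 on the opposite strand. Derl3 had 11 to 20 counts with conditioned medium and 10 to 16 counts without it, and its 95% interval ran from -0.85 to 0.80.

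The 3 genes of the translocon, through which new proteins enter the ER, did not pass the test in edgeR, with 0 at an unadjusted p under 0.05 and 0 in DESeq2. Sec61a1, the channel subunit, averaged 151.6 ± 3.01 CPM with conditioned medium and 153.4 ± 6.50 CPM without it. For Sec61b, a small channel subunit, the log2 fold change was 0.04 (95% interval -0.06 to 0.14), and for Ssr1, the alpha subunit of the translocon-associated protein complex, it was -0.03 (95% interval -0.14 to 0.07).

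Promoter sequences were examined because the ER genes are known targets of shared elements. RefSeq promoters (GRCm38.p6) were found for 32 of the 41 members, 23 of them ER genes, and the 250 bases before each start were searched on both strands. The ER stress element is CCAAT, a gap of 9 bases of any kind, then CCACG. This element, bound by NF-Y together with ATF6 or XBP1, occurred in 9 of the 23 ER members and in 0.113% of 32851 promoters. Its short form, ATTGG and CCACG with 1 base between them, occurred in Herpud1 and in 0.0304% of all promoters. The core TGACGTGG, whose last letters are the reverse complement of CCACG, occurred in 0 of the 23 and in 0.563% of all promoters. The sites follow in stretches of 30 bases, with the motif in capitals and the strand that is written out. They are shown because genes with the same element had different calls: of the 9 genes, 3 fell (Calr, Hspa5 and Syvn1), 1 rose (Dnajc3) and 5 were not called.
Calr, chr8:84847069-84847098, plus strand: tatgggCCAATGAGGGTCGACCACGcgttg
Hspa5, chr2:34772020-34772049, plus strand: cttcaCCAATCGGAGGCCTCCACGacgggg
Syvn1, chr19:6046527-6046556, plus strand: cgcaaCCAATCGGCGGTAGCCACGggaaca
Dnajc3, chr14:118937822-118937851, plus strand: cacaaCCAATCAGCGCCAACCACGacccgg
Canx, chr11:50325794-50325823, minus strand: attgaCCAATCACCACGCTCCACGaagaat
Hsp90b1, chr10:86705632-86705661, minus strand: caagcCCAATCGCAAGGAGCCACGcttcgg
Hsp90b1, chr10:86705527-86705556, plus strand: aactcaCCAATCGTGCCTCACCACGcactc
Pdia6, chr12:17266486-17266515, plus strand: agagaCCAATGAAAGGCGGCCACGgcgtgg
Creld2, chr15:88819515-88819544, minus strand: tgtggaCCAATTGAGGCTCGCCACGagaag
Derl3, chr10:75893237-75893266, minus strand: ggctagCCAATGGGGAAGTCCCACGgtaga
Herpud1, short form, chr8:94386368-94386397, plus strand: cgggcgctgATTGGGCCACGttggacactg
Only exact matches were counted. The Hspa5 stretch lies before a RefSeq start but within the annotated Hspa5 gene, which begins at 34771970. Calr, with a single exact match 144 to 162 bases before its start, fell, while Hsp90b1, with 2 exact matches, had an interval that reached 0.00. Inexact sites were not searched, and a link between the number of matches and the change was not tested. A match of letters does not show that a factor was bound.

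Of the 13 heat shock genes, 5 fell and 0 rose in edgeR. That is 38.5% called, against 39.3% of the ER members and 27.9% of all tested genes. At an unadjusted p under 0.05, 5 were lower and 0 higher, DESeq2 called 5 lower and 0 higher, and each of the 14 alternatives gave these counts. For the ER genes, DESeq2 called 3 higher and 6 lower, and without untreated replicate 2 edgeR called 1 higher and 4 lower. Without conditioned-medium replicate 1, conditioned-medium replicate 3 or untreated replicate 1, 2 ER genes were called higher. The median log2 fold change was -0.07 in the heat shock genes and -0.03 in the ER genes. Summed levels were 3067.0 ± 130 CPM with conditioned medium and 3361.1 ± 153 CPM without it for the heat shock genes, a difference of -8.75%. For the ER genes the sums were 5534.5 ± 19.7 CPM with conditioned medium and 6058.4 ± 114 CPM without it, a difference of -8.65%. Each sum was lower in all treated wells than in any untreated well after TMM scaling. With no scaling beyond the total count the difference was -4.98% for the heat shock genes, whose wells then overlapped (2983.7 to 3213.4 CPM with conditioned medium and 3176.1 to 3385.4 CPM without it). For the ER genes it was -4.89%, and their wells stayed separate. The ER set held calls in both directions, 4 higher and 7 lower, and this contrast between the sets is a description of counts with no test.

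**Figure D3:**
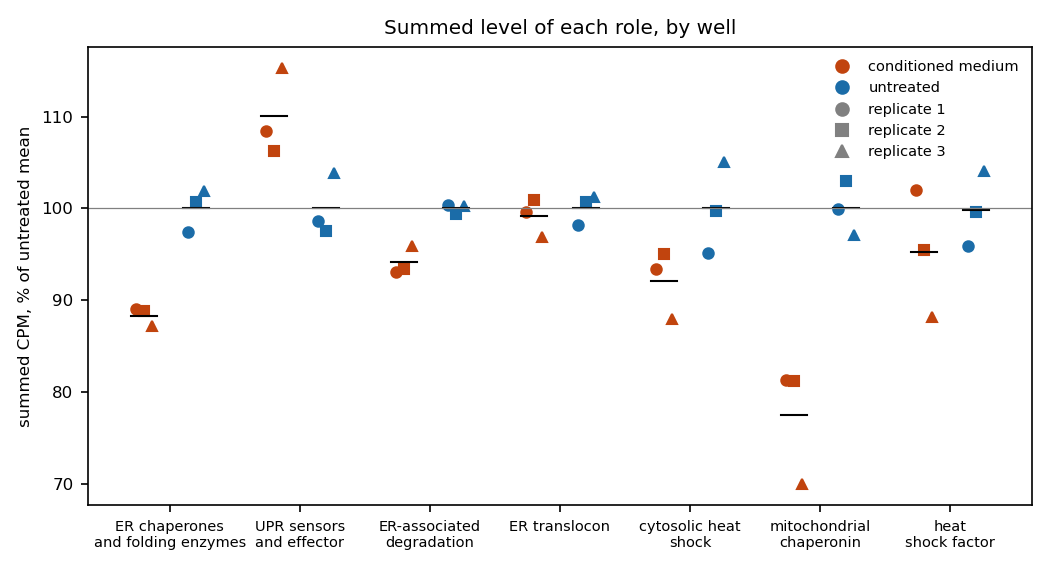
Summed TMM-scaled CPM of each role as a percentage of the untreated mean (y axis, not from 0), for each conditioned-medium well (left in each role) and untreated well (right); lines are means and symbols mark the replicate number. The sensor and effector genes lie above the untreated wells, the ER chaperones, degradation genes, cytosolic heat shock genes and mitochondrial chaperonin lie below, and the translocon and heat shock factor overlap; with no scaling beyond the total count the degradation and cytosolic heat shock genes overlap too.

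Both cytosolic HSP90 genes fell. Hsp90ab1, the constitutive cytosolic form (ENSMUSG00000023944, chromosome 17, 45567775 to 45573271), had 733.2, 751.8 and 697.5 CPM in conditioned-medium wells and 867.6, 909.0 and 929.2 CPM in untreated wells. Hsp90aa1, the stress-inducible form (chromosome 12, 110690605 to 110702728), had 123.2, 127.6 and 111.7 CPM with conditioned medium and 154.3, 151.2 and 136.4 CPM without it. Neither gene had overlapping groups. Their log2 fold changes were -0.31 (SE 0.05, adjusted p = 0.00122) for Hsp90ab1 and -0.29 (SE 0.06, adjusted p = 0.00932) for Hsp90aa1. Per kilobase, Hsp90ab1 stood at 242.6 CPM with conditioned medium and 300.7 CPM without it, while Hsp90aa1 stood at 30.7 CPM with conditioned medium and 37.5 CPM without it.

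The 3 cytosolic HSP70 genes did not pass the test. Hspa8, encoding the constitutive HSC70, was the most abundant member per kilobase, at 424.2 CPM with conditioned medium and 432.3 CPM without it. Its wells ran to 1855.3, 1879.4 and 1738.7 CPM with conditioned medium and 1740.4, 1849.8 and 1987.7 CPM without it. The groups overlapped, and the log2 fold change of -0.03 (95% interval -0.16 to 0.11) turned to 0.03 with no scaling beyond the total count. The inducible genes Hspa1a and Hspa1b had few counts. Hspa1a had 26, 21 and 33 counts in the treated wells and 22, 6 and 36 counts in the untreated wells, while Hspa1b had 35, 31 and 38 counts in treated wells and 35, 31 and 62 in untreated wells. Of 50-base windows along the Hspa1a transcript, 58.8% occur exactly in Hspa1b, so the division of reads between the genes is uncertain. The treatment of multi-mapping reads is not stated, so reads that match both genes may also be missing from these counts and levels. Their intervals ran from -1.09 to 1.15 for Hspa1a and from -1.25 to 0.07 for Hspa1b, and the untreated wells ranged from 6 to 36 counts for Hspa1a. The share of counting error in these intervals was not tested. Per kilobase their group means were 0.293 to 0.622 CPM, against 424.2 and 432.3 CPM for Hspa8.

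Among the helpers of HSP70, 1 gene fell. Bag3, a nucleotide exchange factor that couples HSP70 to selective autophagy (chromosome 7, 128523616 to 128546981), had 30.4, 28.9 and 30.2 CPM with conditioned medium and 38.6, 34.1 and 39.8 CPM without it. It fell 1.26-fold with separate groups (adjusted p = 0.00487). Dnajb1, the HSP40 gene induced by heat shock, averaged 34.6 ± 1.99 CPM in treated wells and 32.2 ± 1.41 CPM in untreated wells (log2 fold change 0.10, 95% interval -0.03 to 0.24, adjusted p = 0.243). Dnaja1, another HSP40 gene, had a log2 fold change of -0.07 (adjusted p = 0.386) and shares 608 exon bases with Smu1 on the opposite strand. Hsph1, encoding the exchange factor HSP105, had a log2 fold change of 0.01 (95% interval -0.12 to 0.15). Hspb1, a small heat shock protein gene, had 19, 14 and 10 counts with conditioned medium and 11, 5 and 9 counts without it (adjusted p = 0.443). Hsf1, the transcription factor of the response, averaged 23.3 ± 1.69 CPM in treated wells and 24.5 ± 1.04 CPM in untreated wells (adjusted p = 0.518).

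Both genes of the mitochondrial chaperonin fell. Hspd1 encodes the barrel subunit HSP60 (ENSMUSG00000025980, chromosome 1, 55077835 to 55088243) and Hspe1 its lid HSP10 (ENSMUSG00000073676, chromosome 1, 55088132 to 55091307). Hspd1 had 102.2, 100.6 and 86.3 CPM in conditioned-medium wells and 124.7, 130.9 and 117.3 CPM in untreated wells. Hspe1 had 65.7, 67.0 and 58.2 CPM in conditioned-medium wells and 81.7, 81.8 and 83.2 CPM in untreated wells. Both groups of wells were separate for each gene, and both log2 fold changes rounded to -0.37 (SE 0.07 and adjusted p = 0.00390 for Hspd1, SE 0.06 and adjusted p = 0.00120 for Hspe1). The genes are divergent neighbours whose annotated exons share 112 bases on opposite strands, so their counts are not fully separate if strand was not used.

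A heat shock element between a start of Hspd1 and the start of Hspe1 is shown because both genes fell. The search used GAA, TTC and GAA in that order with 2 bases of any kind between neighbours, and the reverse complement of that pattern, and found a match in 0.466% of all promoters. Only exact matches were counted. Among the 9 heat shock members with a promoter sequence, Hspd1 and Hspe1 held the element. Bag3, which also fell, held 0 matches, as did the uncalled Hspa1a, Hspa1b, Dnajb1, Dnaja1, Hsph1 and Hspb1. The search would miss inexact elements and elements outside the 250 bases, so 0 matches does not show that a gene lacks the element. Hsp90aa1 and Hsp90ab1 fell too but had no promoter sequence to search. A link between the element and the falls was not tested. The element lies 127 to 144 bases before a start of Hspd1 and 72 to 89 bases before the start of Hspe1, within the annotated Hspd1 gene. The other Hspd1 promoter in the RefSeq table lies before the annotated start of this minus-strand gene, at 55088243. It held 0 matches in its 250 bases. The 2 lines give opposite strands of a single stretch, with the overlapping matches in capitals.
Hspd1, chr1:55088053-55088082, minus strand: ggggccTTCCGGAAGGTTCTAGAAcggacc
Hspe1, chr1:55088053-55088082, plus strand: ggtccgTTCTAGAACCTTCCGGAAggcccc
A match of letters does not show that heat shock factor was bound there.

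**Figure D4:**
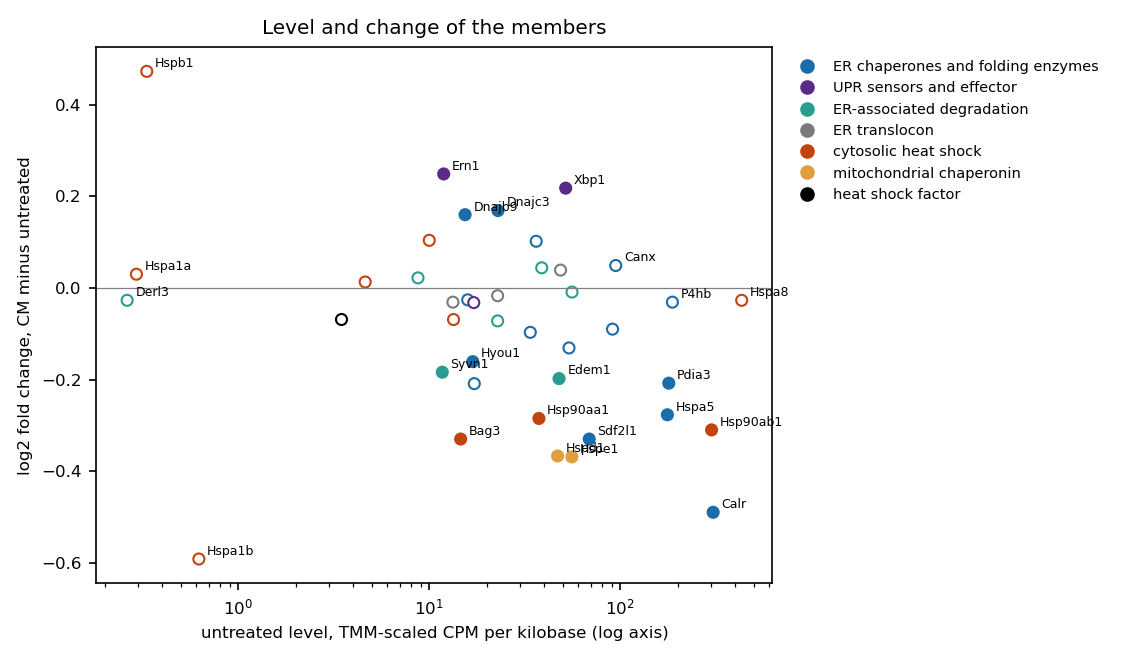
Log2 fold change (conditioned medium minus untreated, y axis) against the untreated level in CPM per kilobase (x axis, log scale) for the 41 members; filled points passed the adjusted p threshold of 0.05. Hspb1, Hspa1a, Hspa1b and Derl3 lie below 1 CPM per kilobase and are all open points, and Hspa8, the highest member, lies near 0.

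Other genes of the same pathways were counted from lists that hold none of the 41 members. Of 147 tested genes, 8 rose and 20 fell, which is 19.0% called, against 27.9% of all genes. Their median log2 fold change was -0.01. With the replicate block 11 rose and 22 fell, where 36.3% of all tested genes were called. The rises gained were those of Serpinh1, a collagen chaperone gene (block adjusted p = 0.000296), Selenof (0.0366) and Dnajb2 (0.0483). The falls gained were those of Lrpap1 (0.0475) and Vcp (0.0494). Serpinh1 had 18.6, 7.29 and 6.78 CPM with conditioned medium and 8.15, 1.9 and 5.41 CPM without it. Its groups overlapped, and its adjusted p was 0.14 in the main edgeR test and 0.312 with DESeq2. Fibroblast markers also varied between wells of a group, and the part of fibroblasts in the Serpinh1 difference was not tested. Among 13 other regulators of the unfolded protein response, 2 rose and 4 fell, which is 46.2% called. Eif2ak3, which encodes PERK, had 52.5, 46.9 and 51.6 CPM with conditioned medium and 41.9, 36.3 and 41.1 CPM without it (adjusted p = 0.00511). Ddit3, which encodes CHOP, a proapoptotic factor of the PERK branch, had 9.09, 11.8 and 10.1 CPM with conditioned medium and 14.2, 16.3 and 16.0 CPM without it (adjusted p = 0.00298). PERK transcripts rose and CHOP transcripts fell, and Atf4, the factor between them, was not called (log2 fold change -0.10, adjusted p = 0.157). These are transcript levels, and the activity of the PERK branch was not tested. Creb3l2, an ER-anchored transcription factor gene, rose with a log2 fold change of 0.26. Wfs1, a membrane protein gene of the ER, fell with a log2 fold change of -0.53.

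Of 27 other ER folding genes, 4 rose and 4 fell, which is 29.6% called against 27.9% of all tested genes. Cnpy4 and Cnpy3, whose products assist Toll-like receptors, rose with log2 fold changes of 0.46 for Cnpy4 and 0.37 for Cnpy3. Erp29, a folding factor of the lumen, and Ero1lb, an oxidase for disulphide isomerases, fell with log2 fold changes of -0.28 for Erp29 and -0.23 for Ero1lb. The paralogous oxidase gene Ero1l, named after its values were seen, had 42.2, 41.6 and 46.0 CPM with conditioned medium and 33.1, 32.8 and 34.9 CPM without it, and it rose (log2 fold change 0.36, adjusted p = 0.00120). Of 21 other degradation genes, 1 (4.76%) fell. This was Edem2, a relative of Edem1 that trims mannose, at 70.1 ± 2.51 CPM with conditioned medium and 93.3 ± 3.33 CPM without it (adjusted p = 0.000214). Of 29 other translocation and glycosylation genes, 4 (13.8%) fell and 0 rose in edgeR. At an unadjusted p under 0.05, 1 was higher, and DESeq2 called 0 higher. The largest falls were those of the oligosaccharyltransferase genes Rpn2 and Stt3b (both with a log2 fold change of -0.25).

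Of 30 other cytosolic chaperones and cochaperones, 2 rose and 5 fell, which is 23.3% called against 27.9% of all tested genes. Fkbp5, an HSP90-binding immunophilin of steroid receptor complexes, had 49.5, 47.1 and 48.8 CPM in treated wells and 12.0, 10.5 and 11.7 CPM in untreated wells. It rose, and its log2 fold change of 2.09 was the largest of the 147. Ahsa1, which stimulates the HSP90 ATPase, had 76.1, 82.7 and 70.5 CPM with conditioned medium and 92.7, 100.5 and 102.6 CPM without it (adjusted p = 0.00258). Hspbp1, an HSP70 exchange factor, fell with a log2 fold change of -0.28. Dnajb4, an HSP40 gene, rose with a log2 fold change of 0.25, close to the threshold (adjusted p = 0.0498). DESeq2 did not call Dnajb4 (adjusted p = 0.087). Of 14 genes of the cytosolic chaperonin and prefoldin, Cct7 and Cct3 fell (14.3% called). Their log2 fold changes were -0.19 for Cct7 and -0.16 for Cct3. Of the 13 other mitochondrial chaperones and proteases, 0 were called by edgeR, 0 with the replicate block and 0 by DESeq2, and at an unadjusted p under 0.05 1 was lower and 0 were higher.

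**Figure D5:**
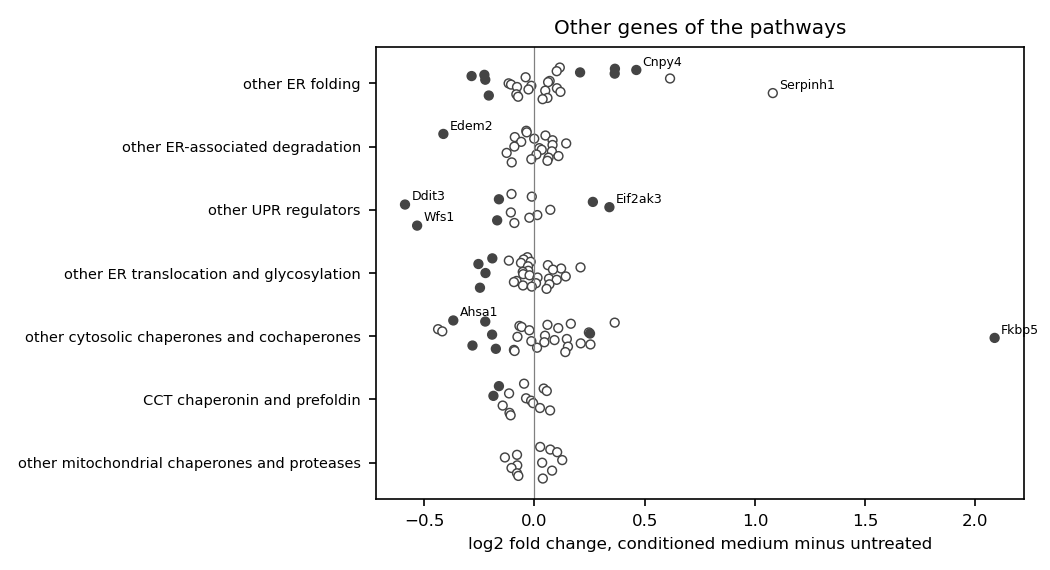
Log2 fold change (conditioned medium minus untreated, x axis) of the 147 tested genes in 7 lists of other pathway genes; filled points passed the adjusted p threshold of 0.05. Most points lie within 0.5 of 0, and Fkbp5 stands apart at 2.09.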

How the data were processed

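The authors deposited 1 table of raw counts, with whole numbers per gene and library, gene coordinates and exon length. HISAT2, featureCounts and the build GRCm38 are named in the submitters' processing notes. The sources used here do not state versions, strand setting, annotation or treatment of multi-mapping reads. Of 55421 genes, 55154 were given a symbol by identifier from a table of GENCODE M21 names. Gene length (exon bases in the deposited table, an other unit) served only for levels per kilobase. Members, lists and tests were chosen with earlier results of these data known.

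Genes were kept by filterByExpr, scaled by TMM and tested by edgeR's quasi-likelihood test on the group alone (edgeR 4.0.16, limma 3.58.1, R 4.3.3), with Benjamini-Hochberg adjustment over all tested genes and a threshold of 0.05. CPM are relative to the tested genes' total. SE derive from the F statistic. Libraries of a group differed beyond sampling noise. The named genes are all members and, per list, at most 2 rises and 2 falls past the threshold with a mean of at least 5 CPM. Atf4, Ero1l and the genes called only with the replicate block were named in addition. For the replicate block and the pair differences only, replicate numbers were taken to pair the wells. The reason was that deviations from group means correlated at 0.328, 0.161 and 0.309 for equal numbers and -0.289 to 0.0112 otherwise. Deviations within a group cancel out, so these correlations are not independent of each other. The main test did not use the pairing, and the labels do not say what the numbers mark. Alternatives were RLE, no scaling, DESeq2 1.42.0, other filters, the replicate block and leaving out each well. The test was checked on simulated data. At these depths 3 counts, the limit set by 0 counts, equal 0.0999 to 0.124 CPM, for counting error only. Unlike the levels above, this range is relative to the full library totals, before TMM scaling.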

Additional observations from a re-analysis of the deposited data

How the results depend on the processing

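Thinning all libraries to the smallest total, and leaving out both wells numbered 3, were added once the data had been seen. Of the 16 called members, 10 kept direction and call under all 14 alternatives: Bag3, Calr, Edem1, Ern1, Hsp90aa1, Hsp90ab1, Hspa5, Hspd1, Hspe1 and Sdf2l1. With the replicate block 4 members were higher and 14 lower, since Pdia6 and Creld2 were added, and no other member's call changed. When single wells were left out, the genes called higher numbered 1146 to 1653 over all genes, the members called higher 1 to 4, all of them ER genes (1 to 4), and the ER genes called lower 4 to 7; fewer wells were fitted there, and no other cause was tested. With no scaling beyond the total, 2656 genes were called higher, and the median log2 fold change of all genes was 0.07 in place of 0.01. Every reversal was of a member that was not called. With no scaling, P4hb gave 0.0272, Manf 0.0316, Atf6 0.0259, Derl1 0.0493, Derl3 0.0301, Sec61a1 0.0413, Ssr1 0.0261 and Hspa8 0.0312. With no low-count filter, Derl1 gave 0.00843 and Sec61a1 0.000129. At equal depth, Derl3 gave 0.0893 and Hsph1 -0.00118. Without both wells numbered 3, Sec61a1 gave 0.0211, Hspa8 0.0574 and Hsf1 0.0171. With single wells left out, the log2 fold change ran from -0.0592 to 8.04e-07 for P4hb, -0.0031 to 0.0948 for Herpud1, -0.00372 to 0.0335 for Derl2, -0.251 to 0.187 for Derl3, -0.0511 to 0.0114 for Sec61a1, -0.0545 to 0.00233 for Ssr1, -0.409 to 0.61 for Hspa1a, -0.0746 to 0.0237 for Hspa8 and -0.0253 to 0.0672 for Hsph1. The cause of these changes was not tested. Derl3, Hspa1a, Hspa1b and Hspb1 had the fewest counts; how far depth or the spread between wells sets their intervals was not tested. A mean of at least 1 CPM left 3 members untested.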

Other observations

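The well pair numbered 3 gave the lowest difference between conditioned medium and untreated for 12 of the 13 heat shock members and 16 of the 28 ER members. Over all 13853 tested genes the share was 38.7%. For Hspa8 the differences in pairs 1, 2 and 3 were 0.09, 0.02 and -0.19 on the log2 scale. Hsph1 gave 0.10, 0.07 and -0.14, and Dnajb1 gave 0.19, 0.17 and -0.04. The pattern was noticed in these data and was not tested.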
